A study of Mus musculus with 2 samples.

Results

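Hemgn, Fam210b, Smim1, Cited4, F10, Tspan33, Mrap, Prss50 and Hebp1 were followed here as 9 of the 29453 genes in the count tables. They had been picked from these same data for their place in host erythroid cells, under the working name of late erythroid genes lost without Gata1, so their levels in host cells and their difference between the fractions are described and not tested. The name held for part of them only. Smim1 kept most of its level in Gata1- cells, F10 fell rather than rose over host erythroid maturation, and Prss50 stayed level over it. Fam210b was less than 2-fold lower in Gata1- cells of the early erythroid-like group described below. With all UMIs in the total, only Hemgn and Hebp1 rose at least 2-fold over host maturation, as measured by globin share.

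The chimera experiment was part of a wider study of gene expression kinetics in erythroid maturation. It asked what the absence of Gata1 does to red cell formation in chimeric mouse embryos. A single clone of male embryonic stem cells, which carried a tdTomato reporter expressed from the ROSA26 locus and a 38 bp frameshift mutation in exon 4 of Gata1, was injected into wildtype C57BL/6 blastocysts of E3.5. Cells of 6 embryos were pooled and sorted into a tdTom+ fraction (Gata1-, labelled E8.5) and a tdTom- fraction (wildtype host, labelled E8.6), with 1 droplet-based scRNA-Seq library each. The sample titles and the study's methods give E8.5 for both fractions. The fractions therefore differed in genotype, strain, sex of the injected clone and library at once, which cannot be told apart in any value below. The tdTom+ library held 8981 cells and 167940767 spliced UMIs, and the tdTom- library 9252 cells and 157174026 spliced UMIs, with medians of 17598 and 15996 per cell. These are all cells of the deposited counts, more than the study reports as passing quality control and given a cell type. A barcode was shared by both libraries in 18 cases. With 1 library per fraction there was no test between fractions: levels are spliced UMIs of a gene per 10 to the power 6 spliced UMIs of the same cells (CPM), and all 95% intervals (exact Poisson for CPM, exact conditional for log2 ratios, Clopper-Pearson for shares) cover counting error only.

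Red cells of the early embryo arise in the yolk sac, where progenitors turn on globin, heme synthesis and membrane genes in steps. Gata1 is a zinc finger transcription factor that binds GATA motifs and is required for erythroid and megakaryocytic maturation. The 9 genes fall into several roles. Hemgn encodes hemogen, a nuclear protein of blood cells that promotes erythroid differentiation, and Cited4 a transcriptional co-activator that binds CBP/p300. Fam210b encodes a mitochondrial membrane protein that aids iron use for heme, and Hebp1 a heme-binding protein. Smim1 encodes the small membrane protein that carries the Vel blood group antigen, and Tspan33 a tetraspanin of erythroid progenitors. F10 (coagulation factor X, best known from liver), Mrap (an accessory protein of the ACTH receptor in the adrenal gland) and Prss50 (a protease-like protein best known from testis) are better known from other tissues. Hemgn, Fam210b, Smim1 and Hebp1 are on the study's list of MURK (multiple rate kinetics) genes, whose transcription steps up midway through erythroid maturation.

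In the GENCODE M21 annotation of GRCm38, Hemgn lies at chr4:46393989-46413506 on the minus strand, Cited4 at chr4:120666572-120667820 on the plus strand and Smim1 at chr4:154020470-154026230 on the minus strand. Fam210b is at chr2:172345565-172355749 (plus), Tspan33 at chr6:29694222-29718559 (plus), Hebp1 at chr6:135137522-135198022 (minus), F10 at chr8:13037308-13056676 (plus), Prss50 at chr9:110857967-110864629 (plus) and Mrap at chr16:90738207-90749785 (plus). Smim1 overlaps Lrrc47 on the other strand, and Hebp1 overlaps 4 other annotated genes, of which Gm34391 is on its own strand, so reads in the shared part of Gm34391 and Hebp1 cannot be told apart.

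RefSeq promoters (GRCm38.p6, 250 bases before to 50 after the gene start) were at hand for 8 of the 9 genes, not for Mrap. A GATA motif (the letters GATA after A or T and before A or G, on either strand) was found in 1 of the 8, Hemgn, beside 29.8% of all 32851 promoters in the table. A KLF motif (CCNCNCCC on either strand) was found in 7 of the 8, beside 49.5% of all promoters, and an E-box (CANNTG) in 6 of the 8, beside 72.3%. The 250 bases upstream of 3 genes are shown, with GATA and KLF matches in capitals: Hemgn as the only one with a GATA match, Prss50 as the gene with the lowest ratio between the fractions in the early group defined below and no match of any of the 3 motifs, and Smim1 as the gene that kept most of its level.
Hemgn (chr4:46404184-46404433, minus strand): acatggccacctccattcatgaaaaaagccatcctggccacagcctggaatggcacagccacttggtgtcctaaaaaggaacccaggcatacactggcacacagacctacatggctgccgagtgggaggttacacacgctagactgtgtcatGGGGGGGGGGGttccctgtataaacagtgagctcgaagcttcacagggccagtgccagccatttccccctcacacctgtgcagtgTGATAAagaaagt
Prss50 (chr9:110857714-110857963, plus strand): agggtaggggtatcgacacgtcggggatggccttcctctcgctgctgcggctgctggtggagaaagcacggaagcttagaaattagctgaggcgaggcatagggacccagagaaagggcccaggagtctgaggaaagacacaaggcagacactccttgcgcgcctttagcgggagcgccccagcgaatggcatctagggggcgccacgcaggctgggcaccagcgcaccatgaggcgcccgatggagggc
Smim1 (chr4:154026045-154026294, minus strand): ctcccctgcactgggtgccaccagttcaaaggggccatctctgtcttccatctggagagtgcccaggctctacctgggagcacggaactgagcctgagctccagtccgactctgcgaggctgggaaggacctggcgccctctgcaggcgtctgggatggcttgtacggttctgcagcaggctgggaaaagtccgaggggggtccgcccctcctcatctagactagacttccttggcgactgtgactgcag
In Hemgn, TGATAA begins 13 bases before the gene start on the gene's own strand, and a second match, AGATAA, begins 28 bases after it. The run of G in the Hemgn sequence holds 4 overlapping KLF matches on the other strand. The single KLF match of Smim1 lies after the gene start and is not in the printed stretch. The starts are those of RefSeq, which need not be the ends of the GENCODE genes. These matches are a description of letters and not of binding.

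Cells were clustered without the 9 genes, Gata1, the MURK list, the list of other erythroid genes described below, and several blood lineage and sex-linked genes, 127 genes in all. Among 3987 haemato-endothelial cells (2131 tdTom+ and 1856 tdTom-), host cells formed 5 erythroid-like sub-clusters with 1385 host cells. One of them held 303 host cells, with Cited4, F10, Slc38a5 and Blvrb among its leading genes, which is no finding about it. Only 4 tdTom+ cells lay in these sub-clusters, apart from 36 tdTom+ and 57 tdTom- cells in the one led by Cdkn1a. Its next leading genes were the globin genes Hbb-y and Hbb-bs and then Ccng1, like Cdkn1a a stress gene. Each tdTom+ cell was therefore assigned by vote of its 15 nearest host cells, in the space of the leading components. This set 1105 tdTom+ cells beside the 303 host cells of the early erythroid-like group, 214 beside 1082 host cells of the later erythroid-like group, and 94 beside 60 host cells of the megakaryocyte-like group. Of the 1105 cells, 1085 lay in blood progenitor-like sub-clusters of their own, as did 197 of the 214 and 85 of the 94. With cosine distance in place of the distance used here, 722, 461 and 189 tdTom+ cells were assigned to these groups.

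The matched cells differed in cell type markers as well. In the early group the 7 erythroid markers summed to 17100.5 CPM in tdTom+ and 53628 CPM in host cells, with none at 0 in either, and in the later group to 27483 and 108197 CPM. In the early group the 6 blood progenitor markers summed to 785 and 243 CPM, and the 6 myeloid markers to 80.2 and 1.96 CPM, 3 of them at 0 in host cells. The 7 megakaryocyte markers summed to 53.6 CPM in tdTom+ and 177 CPM in host cells of the early group. In the later group the blood progenitor markers summed to 778 and 198 CPM, the myeloid markers to 49.1 and 1.25 CPM and the megakaryocyte markers to 21.4 and 97.6 CPM. In the megakaryocyte-like group the 7 megakaryocyte markers summed to 379.7 CPM in tdTom+ and 895 CPM in host cells, the 6 myeloid markers to 572 and 135 CPM, the 7 erythroid markers to 3696 and 10456 CPM, and the 6 blood progenitor markers to 949 and 402 CPM. In the early group, globin genes made up a median of 1.66% of the spliced UMIs of a tdTom+ cell and 5.47% of those of a host cell, and in the later group 2.35 and 10.7%. The part of these differences in the values below was not tested.

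Gata1 itself, at chrX:7959260-7978071 on the minus strand, had 31.1 CPM in tdTom+ and 141 CPM in host cells of the early group, a log2 ratio of -2.18 (-2.32 to -2.04). Its log2 ratio was -2.12 (-2.39 to -1.87) in the later group. The UMI counts do not read the mutation itself. Unspliced UMIs made up 58.3% of the Gata1 UMIs in tdTom+ cells (1076 unspliced beside 770 spliced) and 7.60% in host cells of the early group, with intervals of 56.0 to 60.5% and 5.98 to 9.49%.

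In the early erythroid-like group, 7 of the 9 genes were lower in tdTom+ cells, taken as a log2 ratio of -1 or below with an interval that excludes 0, and 0 of the 9 were higher. Among all 8191 genes that reached 100 UMIs there, 2.8% were lower and 6.24% higher by the same rule. The median log2 ratio was -3.12 over the 9 genes and 0.08 over all 8191. Because the genes had been picked with this contrast known, nothing is read from the difference between these shares.

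Prss50 and Hemgn were close to absent from tdTom+ cells. Prss50 had 4 UMIs in 1105 tdTom+ cells (0.161 CPM) and 267 in 303 host cells (43.5 CPM), a log2 ratio of -8.07 (-9.96 to -6.70). Hemgn stood at 1.61 CPM (40 UMIs) in tdTom+ and 31.3 CPM (192 UMIs) in host cells, a log2 ratio of -4.28 (-4.81 to -3.78). The intervals of both genes leave a wide gap between the fractions. Their own low counts in tdTom+ cells make the ratio of Prss50 the least precise of the 9.

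Mrap, Tspan33 and Hebp1 formed a middle set. Mrap, the receptor accessory gene, had 11.9 CPM in tdTom+ and 135 CPM in host cells, an 11.3-fold difference (log2 ratio -3.50, -3.70 to -3.31). Tspan33 read 16.6 and 164 CPM, a 9.89-fold difference (log2 ratio -3.31, -3.47 to -3.14). Hebp1 was found at 10.2 CPM in tdTom+ and 88.8 CPM in host cells, an 8.67-fold difference (log2 ratio -3.12, -3.34 to -2.90). All 3 kept a low level above that in tdTom+ cells with neural markers, which was 0.259 CPM for Mrap and 3.53 CPM for Hebp1. In endothelial-like tdTom+ cells, however, Hebp1 read 14.2 CPM, more than in those of the early group. Tspan33 had 16.6 CPM (15.02 to 18.3) beside 11.5 CPM (10.4 to 12.8) in those neural cells, but 1.56 CPM (0.832 to 2.67) in endothelial-like and 1.27 CPM (0.411 to 2.96) in myeloid-like tdTom+ cells.

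F10, Cited4, Fam210b and Smim1 kept more of their level. F10 had 23.0 CPM in tdTom+ and 107 CPM in host cells (log2 ratio -2.22, -2.39 to -2.06), and Cited4 259 and 693 CPM (log2 ratio -1.42, -1.48 to -1.37). Fam210b, the mitochondrial gene, read 86.0 and 158 CPM, 1.84-fold lower and so short of the 2-fold rule (log2 ratio -0.88, -0.99 to -0.77). Smim1 read 293 and 347 CPM, a difference of 1.18-fold (log2 ratio -0.24, -0.31 to -0.17). Fam210b and Smim1 are thus the members outside the rule in this group, although both intervals lie below 0.

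**Figure D1:**
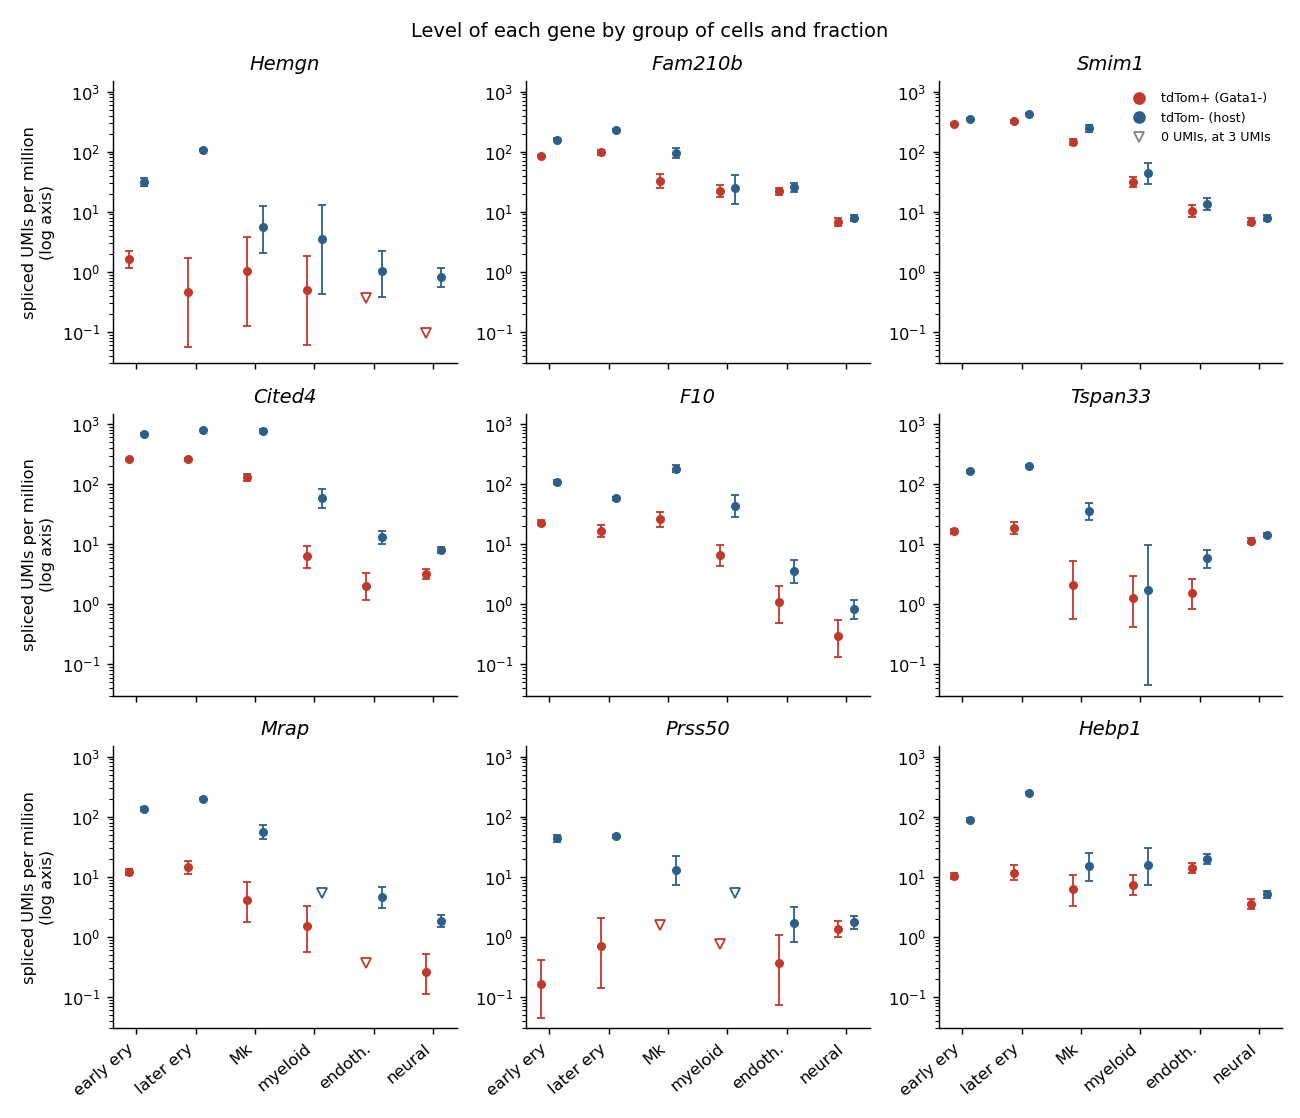
Level of each gene (CPM, log axis) in tdTom+ (red) and tdTom- (blue) cells of 6 groups, from left to right early erythroid-like, later erythroid-like, megakaryocyte-like, myeloid-like and endothelial-like cells and cells with neural markers. Points are sums over the cells of 1 library with exact Poisson 95% intervals, and open triangles mark 0 UMIs, drawn at the level of 3 UMIs. The red and blue points lie farthest apart for Prss50 and Hemgn in the 2 erythroid-like groups and closest for Smim1.

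In the later erythroid-like group, 8 of the 9 genes were lower in tdTom+ cells, beside 4.08% of 7506 genes, and 0 of the 9 were higher, beside 6.55%. Hemgn had 2 UMIs in 214 tdTom+ cells (0.461 CPM) and 2202 UMIs in 1082 host cells (106 CPM), a log2 ratio of -7.84 (-10.89 to -5.99). Hebp1 read 11.8 and 252 CPM, 21.4-fold lower (log2 ratio -4.42, -4.85 to -4.02), and its interval lies below that of the early group. Fam210b, at 98.5 and 232 CPM, passed the rule here (log2 ratio -1.23, -1.38 to -1.09). Smim1 did not, at 319.6 and 432 CPM (log2 ratio -0.43, -0.52 to -0.35). Prss50 had 3 UMIs in tdTom+ cells (0.692 CPM) and 47.0 CPM in host cells, with a log2 ratio of -6.09 (-8.37 to -4.54). With cosine distance the ratios of Prss50 and Hemgn in the later group were -7.23 and -6.40. The remaining 4 had log2 ratios of -1.60 (Cited4), -1.80 (F10), -3.40 (Tspan33) and -3.81 (Mrap). Between the early and later groups, the intervals of the level in tdTom+ cells overlapped for genes such as Cited4 (259 and 262 CPM) and Tspan33 (16.6 and 18.9 CPM). They did not for Smim1, which was higher in the later group (293 and 319.6 CPM), or for F10, which was lower (23.0 and 16.6 CPM). No share of all genes was at hand for this comparison, so nothing is read from how many of the 9 overlapped. The host level of Hebp1 and Hemgn rose over the same step, so that their ratios fell while their tdTom+ levels stayed low.

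Several of these genes were also present in megakaryocyte-like host cells, where Cited4 read 763 CPM, F10 182 CPM and Smim1 245 CPM, and F10 was higher there than in the early (107 CPM) or later (58.0 CPM) erythroid-like host cells, with intervals of 157 to 210, 99.2 to 116 and 54.8 to 61.4 CPM. Hemgn (5.66 CPM) and Hebp1 (15.1 CPM) were low. Of the 9 genes, 7 were lower in the 94 matched tdTom+ cells, counted without a minimum, beside 3.32% of 12996 genes with at least 1 UMI. Only 4 of the 9 reached 100 UMIs, and 3 of these 4 were lower, beside 2.24% of 3887 such genes: Cited4 (129.8 CPM, log2 ratio -2.55, -2.76 to -2.35), F10 (26.4 CPM, -2.79, -3.26 to -2.33) and Fam210b (32.6 CPM, -1.55, -2.02 to -1.08). With cells thinned to 5000 UMIs the ratio of Fam210b was -0.95, short of the rule, and 5 of the 9 genes were lower. Smim1, the fourth, had 144 CPM in tdTom+ cells (log2 ratio -0.77, -1.02 to -0.52). Tspan33 had 4 UMIs in tdTom+ and 38 in host cells, Mrap 8 and 59, and Hebp1 12 and 16. Prss50 had 0 and 14 UMIs, which with a floor of 3 UMIs over the group makes it at least 8.51-fold lower (the interval of the log2 ratio ended at -2.60). With cells thinned to 5000 UMIs the bound on its log2 ratio was -1.11. The interval of Hemgn (2 and 6 UMIs) held 0. The ratio of Cited4 lay below those of both erythroid-like groups, with intervals that did not overlap. With cosine distance it was -1.99 here, beside -1.30 in the early and -1.71 in the later group, so the gap depends on the distance. By that distance Smim1 and Fam210b had ratios of -0.22 and -1.06 in the megakaryocyte-like group.

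**Figure D2:**
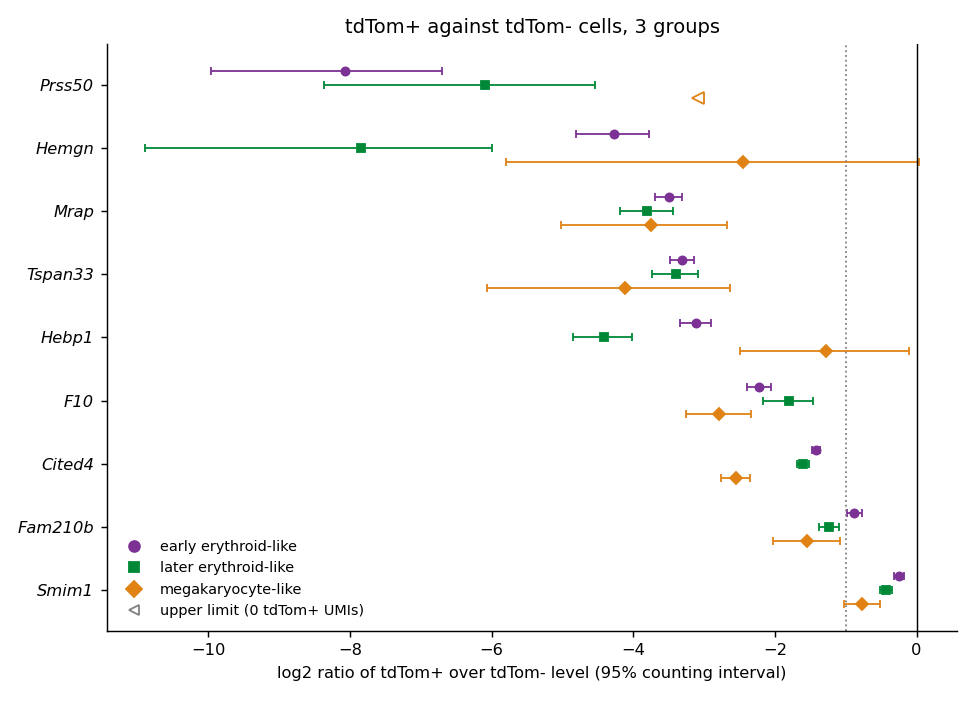
Log2 ratio of the tdTom+ over the tdTom- level for each gene in the early erythroid-like (circles), later erythroid-like (squares) and megakaryocyte-like (diamonds) group, with exact 95% counting intervals. The solid line marks 0 and the dotted line -1, and the open triangle is an upper limit from 0 tdTom+ UMIs. Smim1 lies to the right of the dotted line in all 3 groups, and Prss50 and Hemgn reach -8.07 and -7.84.

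The sub-clusters of the tdTom+ cells themselves gave a further order. Across the 4 blood progenitor-like sub-clusters (530, 362, 249 and 237 cells), Smim1 read 326, 313, 274 and 180 CPM and Cited4 279.6, 293, 237 and 128 CPM. Tspan33 ranged from 25.5 CPM in the first to 2.29 CPM in the last, and Mrap from 14.9 to 4.58 CPM. The last of these, led by Spi1 and Rac2, genes of the myeloid line, was the lowest for Smim1, Cited4, Tspan33 and Mrap, and for Fam210b (41.3 CPM beside 84.0 to 100.1 CPM). Hemgn stayed between 1.16 and 1.53 CPM and Hebp1 between 8.98 and 10.6 CPM, each with overlapping intervals. Prss50 had 3, 2, 0 and 0 UMIs. The 36 tdTom+ cells of the sub-cluster led by Cdkn1a read 311 CPM for Cited4 and 214 CPM for Smim1, and had 0 UMIs of Mrap and Prss50.

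Host erythroid-like cells were ordered by the share of globin genes in their spliced UMIs and split into 5 bins of 277 cells, from a share of 0.116 to 6.29% in the lowest to 13.3 to 27.4% in the highest. Hemgn read 23.5, 53.0, 82.0, 123 and 153 CPM over the bins, and rose at every step with intervals that did not overlap. Hebp1 read 85.4, 151, 224, 270.5 and 325 CPM, likewise with no overlap between neighbours. The log2 ratio of the highest over the lowest bin was 2.70 (2.42 to 2.99) for Hemgn and 1.93 (1.77 to 2.08) for Hebp1, the 2 of 9 genes that rose at least 2-fold, beside 0.814% of 5897 genes. Since the genes were picked for this pattern, nothing is read from that count.

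The other 7 genes followed different courses. Fam210b rose from 159 to 271 CPM, Mrap from 124 to 218 CPM with its top in the fourth bin (223 CPM), Smim1 from 331 to 463 CPM and Cited4 from 679 to 884 CPM, all below 2-fold. Tspan33 rose from 159.7 to 205 CPM by the third bin and read 191 CPM in the highest, with an interval that overlapped those of the third and the fourth. Prss50 read 44.8, 49.5, 47.0, 45.7 and 44.1 CPM, with a log2 ratio of -0.02 (-0.29 to 0.24), so no change over the bins was detectable at this depth. F10, the clotting factor gene, fell from 114 through 90.2, 57.6 and 52.4 to 38.2 CPM, a log2 ratio of -1.57 (-1.80 to -1.34). Gata1 read 145 CPM in the lowest and 123 CPM in the highest bin (log2 ratio -0.25, -0.40 to -0.09). The direction for Gata1 was within counting error of 0 when globin UMIs were left out of the total (-0.06, -0.21 to 0.10), where Mrap also rose 2-fold (1.01, 0.87 to 1.15), F10 still fell (-1.38), and the value of Prss50 changed sign (0.17, -0.10 to 0.44).

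**Figure D3:**
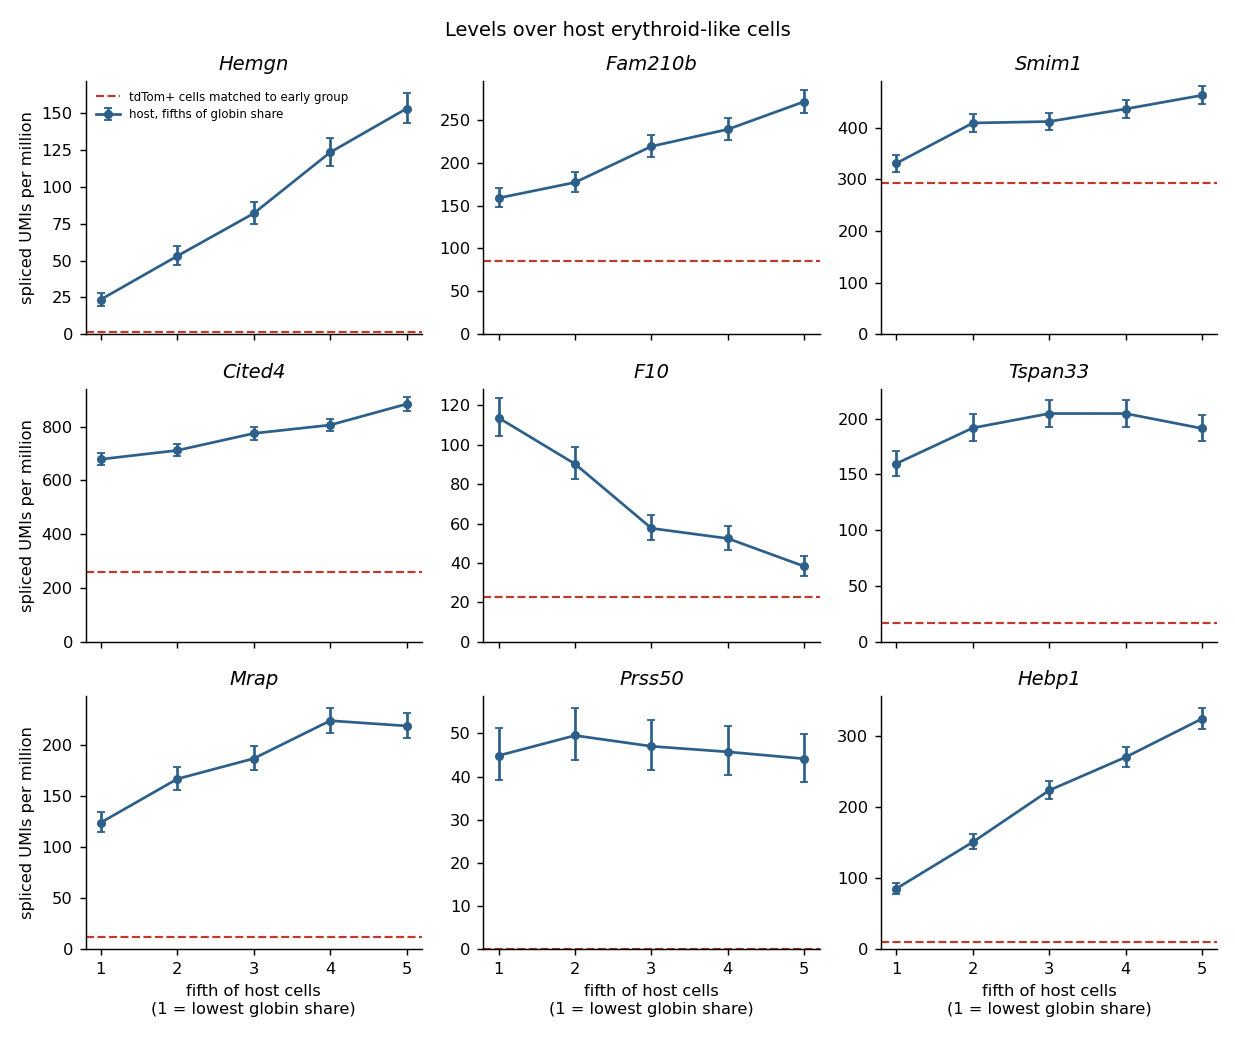
Level (CPM) of each gene over 5 bins of 1385 host erythroid-like cells ordered by globin share, from the lowest (1) to the highest (5), with exact Poisson 95% intervals. The dashed red line is the level in the 1105 tdTom+ cells matched to the early group. Hemgn and Hebp1 rise steadily, F10 falls, Prss50 stays between 44.1 and 49.5, and the red line lies below every host point.

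The globin share allowed a comparison without the matching. Of 1418 tdTom+ erythroid-like and blood progenitor-like cells, 1272 lay within the globin range of the lowest host bin, 28 above it and 118 below it. Within that range the same 7 of 9 genes were lower in tdTom+ cells, beside 2.92% of 8316 genes. Hemgn read 1.49 and 23.5 CPM (log2 ratio -3.98, -4.52 to -3.46), Prss50 0.178 and 44.8 CPM (-7.98, -9.61 to -6.73) and Smim1 296 and 331 CPM (-0.16, -0.24 to -0.08). The median globin share still differed, at 1.65% in all 1418 tdTom+ cells and 4.63% in that host bin. This comparison was added after the data had been seen.

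Counted per cell, the early group showed the same division. At 5000 spliced UMIs per cell, a host cell held a UMI of 4.39 of the 9 genes on average and a tdTom+ cell of 2.00, and 45.8% of host and 0.636% of tdTom+ cells held 5 or more. Without thinning the means were 7.10 and 3.60. In cells with neural markers the thinned means were 0.241 in host and 0.169 in tdTom+ cells, with median depths of 15438 and 16947 UMIs beside 19965 and 21904 in the early group.

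Smim1 was detected in 74.8% of tdTom+ cells (72.1 to 77.3%) and 81.7% of host cells (76.9 to 85.9%) at that depth, and Fam210b in 36.7% and 54.5%. Cited4 was detected in 57.7% and 96.3%, F10 in 11.6% and 40.9%, Mrap in 5.63% and 44.2%, and Hebp1 in 5.63% and 32.2%. For Hemgn, 6 of 1101 tdTom+ cells held a UMI (0.545%, interval 0.2002 to 1.18%), beside 11.6% of host cells. It was found in 0 of 1747 tdTom+ cells with neural markers, which allows a share of cells with a UMI of up to 0.172% at that depth (3 cells of the total), and the Clopper-Pearson interval, up to 0.211%, overlapped that of the early tdTom+ cells. Prss50 was found in 0 of 1101 tdTom+ cells and in 22.9% of host cells. By the same limit of 3 cells, the former allows a share of cells with a UMI of up to 0.272% at that depth, and the Clopper-Pearson interval reached 0.334%. Unthinned, 4 of 1105 tdTom+ cells (0.362%, 0.0987 to 0.924%) held a UMI of Prss50. The share of Tspan33 in tdTom+ cells, 6.99% (5.56 to 8.66%), overlapped the 6.07% (4.99 to 7.29%) found in tdTom+ cells with neural markers. Without thinning the shares were 24.9% (22.4 to 27.5%) and 17.03% (15.3 to 18.9%), in cells of unequal depth. At 5000 UMIs the share of Tspan33 was 0.431% (0.0522 to 1.55%) in endothelial-like and 0.493% (0.0125 to 2.71%) in myeloid-like tdTom+ cells, both below its share in the early group. Its share in host cells of the early group was 54.5%.

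**Figure D4:**
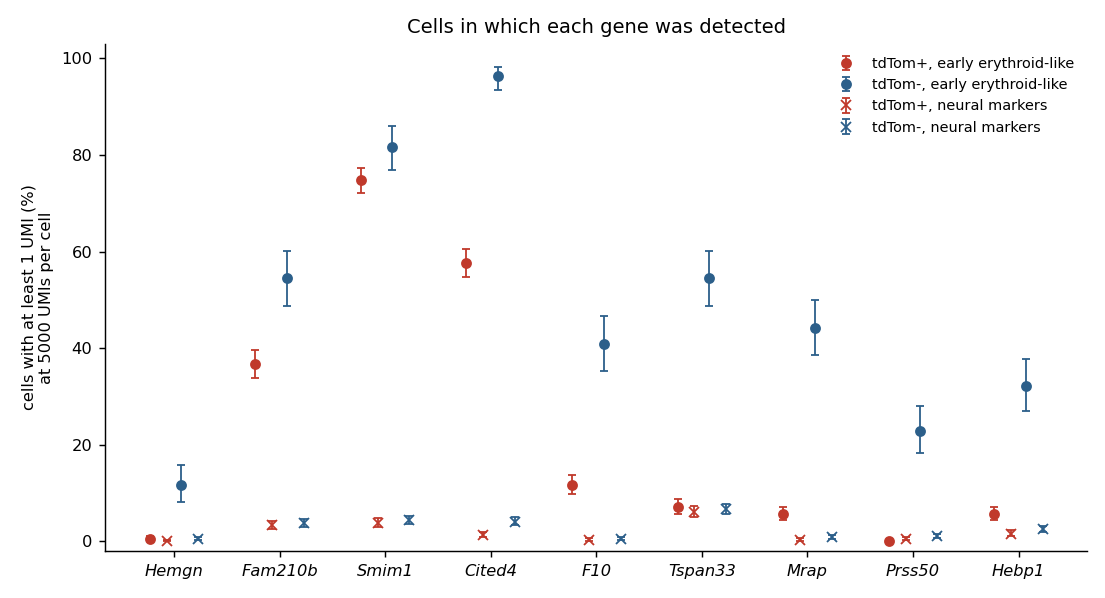
Share of cells with at least 1 spliced UMI of each gene with all cells thinned to 5000 spliced UMIs, for the early erythroid-like group (circles) and in cells with neural markers (crosses), for tdTom+ (red) and tdTom- (blue) cells, with Clopper-Pearson 95% intervals. The red circles of Hemgn and Prss50 lie at 0.545 and 0%, that of Tspan33 at 6.99% beside crosses at 6.07 and 6.66%, and that of Smim1 at 74.8%.

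The unspliced layer was read in the same cells. Whether it had a part in picking the genes is not stated, so its values are a description as well. In the early group the unspliced share was 24.3% (23.5 to 25.2%) for Smim1 in tdTom+ and 21.8% (20.2 to 23.4%) in host cells, the 1 of 9 genes whose intervals did not overlap with tdTom+ higher, beside 0.983% of 9254 genes. For 0 of the 9 genes was it lower by the same rule, beside 3.5% of genes. Hemgn had 10 of 50 UMIs unspliced (10.0 to 33.7%) in tdTom+ cells and a share of 21.6% (16.6 to 27.3%) in host cells. The shares in tdTom+ and host cells were 8.63% and 6.20% for Hebp1, 6.80% and 4.91% for Tspan33, 5.17% and 6.53% for F10, and 5.20% and 5.65% for Fam210b. All of these intervals overlapped. Hemgn had 10 unspliced UMIs in 1105 tdTom+ cells and 53 in 303 host cells, and Hebp1 24 and 36. On the scale of spliced CPM, unspliced Smim1 stood at 94.2 in tdTom+ and 96.5 in host cells. Cited4 had 0 unspliced UMIs in the early, later and megakaryocyte-like groups of both fractions, and Prss50 and Mrap had at most 27, so their unspliced share carries little information. Cited4 could not be called in either direction by this rule and still counts among the 9. Prss50 counts among them too, with an interval of 0 to 60.2% in tdTom+ cells of the early group. In the later group Hebp1 had 12.1% unspliced (4.99 to 23.3%, 7 of 58 UMIs) in tdTom+ and 3.49% (3.01 to 4.01%) in host cells, again 1 of 9 genes with tdTom+ higher, beside 1.19% of genes, and 0 of 9 with tdTom+ lower, beside 5.58%.

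**Figure D5:**
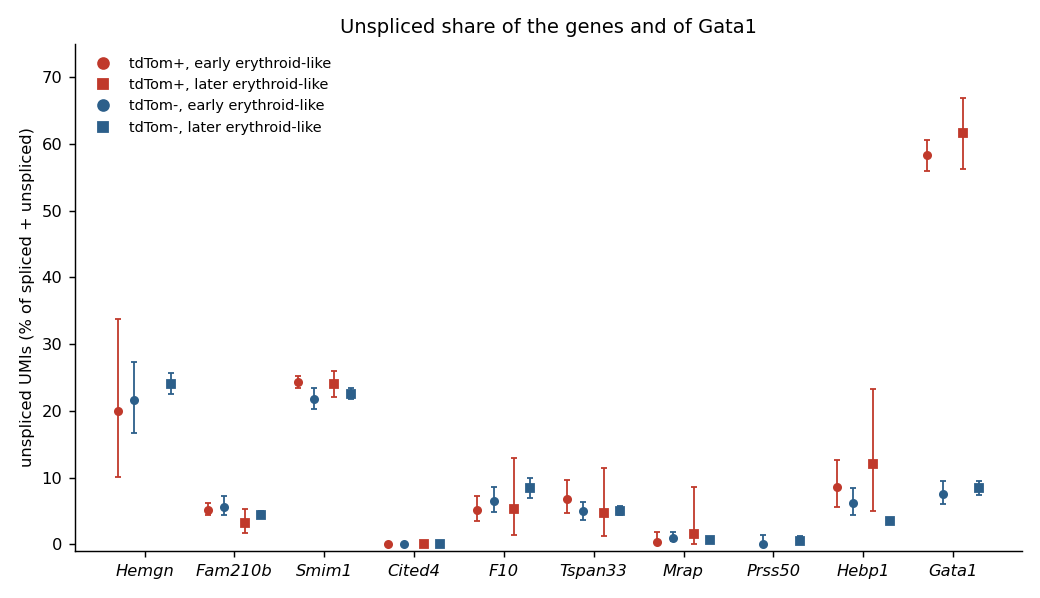
Unspliced UMIs as a percent of spliced plus unspliced UMIs for each gene and for Gata1, in tdTom+ (red) and tdTom- (blue) cells of the early (circles) and later (squares) erythroid-like groups, with Clopper-Pearson 95% intervals. Points with under 20 UMIs in all are left out. The intervals of the 9 genes overlap between the fractions except for Smim1 in the early and Hebp1 in the later group, Prss50 has no red point, and Gata1 is at 58.3% in tdTom+ and 7.60% in host cells of the early group.

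Over the host bins, unspliced Hemgn rose from 7.71 to 45.5 (unspliced UMIs on the scale of spliced CPM) (log2 ratio 2.56, 2.07 to 3.09), close to the rise of its spliced level, and its unspliced share stayed between 22.9 and 25.9%. Unspliced Hebp1 rose from 3.86 to 9.78 (log2 ratio 1.34, 0.57 to 2.18), and its unspliced share over the bins was 4.32, 5.28, 4.44, 3.17 and 2.93%. The interval of the second bin (3.87 to 7.00%) did not overlap that of the highest (2.21 to 3.79%), while that of the lowest (2.62 to 6.66%) did. Unspliced Smim1 rose from 99.4 to 138 (0.47, 0.31 to 0.64). The interval of Fam210b (0.42, -0.11 to 0.97) held 0, and unspliced F10 fell with its spliced form (-0.86, -1.70 to -0.05). Of the 4 MURK genes among the 9, Hemgn and Hebp1 had estimates of at least 2-fold in both layers and Smim1 and Fam210b in neither. The interval of unspliced Hebp1 (19 UMIs in the lowest and 55 in the highest bin) also held rises below 2-fold. No share of all genes was at hand for the unspliced layer, so nothing is read from this count. The study called MURK genes by a steeper and positive slope of unspliced on spliced counts in late erythroid cells of a mouse atlas. It also required that mean spliced counts be highest in those cells. A 2-fold rise over these bins is a different measure, so nothing is read from it about that list.

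Outside the haemato-endothelial clusters, 4 of the 9 genes were lower in tdTom+ cells, counted without a minimum. Hemgn had 98 UMIs in all, and of the 8 genes with at least 100 UMIs 3 were lower, beside 1.88% of 13167 such genes. Hemgn had 0 UMIs in 6453 tdTom+ cells and 98 UMIs in tdTom- cells (0.914 CPM). Cited4 read 3.87 and 9.39 CPM, F10 0.533 and 1.83 CPM, and Mrap 0.379 and 2.11 CPM. Of the 196 host UMIs of F10, 104 came from 62 cells of the cluster led by Apoa1 and Rbp4. Without that cluster, left out after the data had been seen, F10 read 0.389 and 0.869 CPM (log2 ratio -1.16, -1.72 to -0.62, beside -1.78 with it). The embryonic globin gene Hbb-y moved with them, at 15.7 and 146 CPM, and its part in these values was not tested. In host cells with neural markers, the globin genes Hbb-y, Hbb-bh1 and Hba-x stood at 0.965, 0.949 and 0.917% of their host erythroid level. Hemgn (0.929%), Mrap (0.989%), Cited4 (1.05%) and F10 (1.19%) were found at nearly the same ratio. Smim1 (1.92%), Hebp1 (2.37%), Fam210b (3.71%), Prss50 (3.80%) and Tspan33 (7.42%) stood above it.

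Outside blood, levels of these last genes and of Cited4 varied between clusters. Cited4 read 28.7 CPM (93 UMIs) in tdTom+ and 49.3 CPM (112 UMIs) in host cells of the cluster led by Myl3 and Actc1. In cells with neural markers it read 3.24 and 8.13 CPM. Smim1 read 95.1 CPM in tdTom+ and 76.2 CPM in host cells of the cluster led by the heart muscle genes Myl3 and Actc1, and 73.8 and 89.5 CPM in that led by Postn and Col1a1. Hebp1 read 48.4 and 57.2 CPM in a cluster led by Tac2 and Wnt6, and 168 CPM (232 UMIs in 62 host cells) in one led by Apoa1 and Rbp4, where F10 had 75.5 CPM (104 UMIs). This cluster held under 20 tdTom+ cells and was not compared. Fam210b read 56.1 and 40.3 CPM in a cluster led by Pyy and Spink1, 54.5 and 42.4 CPM in one led by Shh and T, and 48.7 CPM in the host cells of that led by Apoa1 and Rbp4. In the cluster led by Shh and T, Prss50 had 15 UMIs in 45 tdTom+ cells (26.4 CPM, 14.8 to 43.5) and 6 in 40 host cells (11.6 CPM, 4.25 to 25.2), and Tspan33 10 and 15 UMIs (17.6 and 28.9 CPM), with intervals that overlapped for both genes. Among clusters with at least 20 cells of each fraction and 30 UMIs of the gene, Smim1 was lower in tdTom+ cells in 1, higher in 1 and neither in 21 of 23, and Fam210b lower in 1 of 24. Cited4 was lower in 15 of 20 and Mrap in 2 of 2. Hebp1 was lower in 4 and neither in 16 of 20, Tspan33 lower in 1 and neither in 14 of 15, and Prss50 neither in 2 of 2. Hemgn and F10 reached 30 UMIs in 0 such clusters.

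In myeloid-like cells (205 tdTom+ and 32 host cells), F10 read 6.58 CPM (4.30 to 9.65) in tdTom+ and 44.0 CPM (28.5 to 65.0) in host cells, and Cited4 6.33 and 58.1 CPM. The host UMIs were few (25 and 33) and lay in 5 and 8 of 32 cells. The share of cells with a UMI of F10, unthinned, was 10.2% (6.45 to 15.2%) in tdTom+ and 15.6% (5.28 to 32.8%) in host cells, and that of Cited4 8.29% (4.91 to 12.9%) and 25.0% (11.5 to 43.4%), with intervals that overlapped for both. Smim1 read 31.4 and 44.0 CPM there, with overlapping intervals. In endothelial-like cells Hebp1 read 14.2 and 19.6 CPM and Fam210b 21.9 and 25.4 CPM.

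Of 32 other erythroid genes listed for comparison, chosen with earlier results of these data known, 31 were in the tables and 29 had at least 100 UMIs in the early group. Of these 29, 19 were lower in tdTom+ cells, 0 higher and 10 neither, with a median log2 ratio of -1.47 beside -3.12 for the 9 genes. The 9 genes had been picked with this contrast known, so nothing is read from the difference between these medians. The lowest ratios were those of Ank1 (1 UMI in tdTom+ and 111 in host cells, log2 ratio -8.81, -14.12 to -6.30) and Add2 (3.35 and 39.8 CPM, -3.57, -3.95 to -3.20), which encode proteins of the red cell membrane skeleton, and Rhd (0.323 and 24.6 CPM, -6.25, -7.49 to -5.24), the Rh blood group antigen. At the other end stood Tfr2 (75 and 4 UMIs, 2.21, 0.80 to 4.13, under 100 UMIs in all), a transferrin receptor, Car2 (1876 and 992 CPM, 0.92, 0.88 to 0.96), a carbonic anhydrase, and Nfe2 (75.1 and 44.5 CPM, 0.76, 0.57 to 0.94), a transcription factor of red cells and megakaryocytes. In the later group 20 of 29 were lower, and in the megakaryocyte-like group 6 of 13. With cosine distance the last count was 3 of 15, and with cells thinned to 5000 UMIs it was 1 of 2.

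Likeness of pattern was measured as the Pearson correlation of log2(CPM + 10) over 76 groups of cells (cluster or sub-cluster by fraction, at least 20 cells), which share the same 2 libraries, and is a description. Of these 76 groups 21 were haemato-endothelial, so a high correlation need not hold within blood. Between the 9 genes the correlation ranged from 0.53 (Smim1 and Prss50) to 0.95 (Hemgn and Mrap), with a median of 0.77 over 36 pairs. The 9 genes were picked for their place in host erythroid cells, so nothing is read from this range. Hemgn was most like Cldn13 (0.97), 6030468B19Rik (0.96) and Slc4a1 (0.96). Cited4 was most like Gata1 (0.96), Hbb-bh1 (0.96) and Epor (0.96), and F10 most like Adcy9 (0.89), Gata1 (0.88) and Fam110c (0.87). Over the host bins, however, Cited4 rose from 679 to 884 CPM, while Gata1 read 145 CPM in the lowest and 123 CPM in the highest. The genes next to Smim1 were Abcb10 (0.93), Fech (0.91) and Cited4 (0.89), and those next to Fam210b were Slc39a8 (0.89), Abcb10 (0.88) and Cpox (0.88). Tspan33 lay near Mrap (0.89) and Add2 (0.89), and Mrap near Trim10 (0.97) and Rfesd (0.96). For Prss50 the nearest were Spef1 (0.92), Add2 (0.91) and Ank1 (0.90), and for Hebp1 5730508B09Rik (0.89), Acp5 (0.89) and Mgst3 (0.82). With 1 CPM added in place of 10, 13 of these 27 genes were still among the 3 most similar to their member, and for F10 and Tspan33 0 of 3 were.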

How the data were processed

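Spliced and unspliced UMI counts per cell and gene were deposited without normalization. Per the labels and methods, the authors used Cell Ranger 3.0.2 with mm10, called and filtered cells, and separated the layers with velocyto. The deposited metrics give total counts and the percent of mitochondrial UMIs per cell (medians 2.07% and 2.08%). Every value was whole.

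Scrublet called 4.09% of tdTom+ and 5.73% of tdTom- cells doublets. These and 1 cluster were left out, leaving 17301 cells. With scanpy 1.11.5 and leidenalg 0.10.2, counts were scaled to 10000 UMIs per cell and clustered (36 clusters, Leiden resolution 1.5, and 1 for haemato-endothelial cells). A name needed 3 markers raised at least 2-fold with 10 CPM added. UMIs were summed over cells. Ratios with 0 counts use a floor of 3. The code for intervals (scipy 1.17.1) was checked on counts drawn from Poisson and binomial distributions. Such counts hold no spread between cells or embryos, so the check does not cover that spread.

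The genes and lists were chosen with earlier results of these data known. Named are the 9 genes, Gata1, the 3 genes most like each, the 3 lowest and 3 highest of the erythroid list, and genes that lead clusters. Genes outside the rule (Hbb-y, Hba-x, and those overlapping) were named after their values were seen. The gene that ranked first for Tspan33 and Mrap is not reported here, nor are the authors' cell types. Alternatives were tried for denominator, layer, depth, distance, free RNA, doublets, resolution and minimum count.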

Additional observations from a re-analysis of the deposited data

Results flagged for a closer look

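The pooled log2 ratios of Fam210b and Smim1 had opposite signs inside and outside blood. Over all cells outside the haemato-endothelial clusters, the log2 ratio of tdTom+ over tdTom- was 0.26 (0.16 to 0.37) for Fam210b, at 14.8 and 12.3 CPM, and 0.20 (0.11 to 0.29) for Smim1, at 19.8 and 17.2 CPM, while in the early erythroid-like group it was -0.88 and -0.24. Within clusters outside blood the median ratio was 0.01 for Fam210b over 24 clusters, with 0 higher, and -0.28 for Smim1 over 23, with 21 neither higher nor lower, and the fractions made up unequal parts of the clusters. The difference was not tested, since each fraction is 1 library, and the intervals cover counting error only.

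Smim1 was also higher in tdTom+ cells of the cluster led by Tbx4 and Pitx1, with a log2 ratio of 1.40 (0.76 to 2.11), 29.9 CPM in 696 tdTom+ and 11.4 CPM in 110 host cells. This is opposite in sign to the early erythroid-like group, and the difference was not tested. A cluster of 246 host and 0 tdTom+ cells also had Tbx4 and Pitx1 among its leading genes. With these clusters joined, after the data had been seen, Smim1 read 29.9 and 29.2 CPM, a log2 ratio of 0.04 (-0.23 to 0.30).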

How the results depend on the processing

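The counts of genes lower in tdTom+ cells were 7 of 9 in the early and 8 of 9 in the later group under every alternative run: globin UMIs left out, layers added, cells thinned to 5000 UMIs, cosine distance, the level in cells with neural markers subtracted, doublets kept, resolution 2, and, chosen after seeing the data, shared barcodes left out, tdTom+ cells in host sub-clusters left out, the sub-cluster led by Cdkn1a left out (later group) and the globin range (early group). In the megakaryocyte-like group the count ran from 5 (thinned) to 8. Beside these counts, the share of all genes with at least 100 UMIs that were lower ran from 2.06 to 3.12% in the early group. It ran from 3.62 to 4.78% in the later and from 1.47 to 2.50% in the megakaryocyte-like group, where the counts used no minimum. No such share was at hand for the subtraction of the neural level. The genes had been picked with this contrast known, so nothing is read from the counts. Genes detected per cell in the early group depend on depth: 3.60 in tdTom+ and 7.10 in host cells unthinned, 1.23 and 2.86 at 2500 UMIs. With 1 CPM added, 13 of the 27 most similar genes were kept. Of single log2 ratios between the fractions in the 3 groups, 0 reversed. Outside blood, joining the clusters with Tbx4 and Pitx1 took the ratio of Hebp1 there from 1.13 to -0.22, both with intervals that held 0. The ratio of Prss50 over the host bins, near 0, changed sign with globin left out. Thinning left 0 UMIs in tdTom+ cells for Hemgn in the later group (-7.84 unthinned) and Prss50 in the early group (-8.07), and with a floor of 3 UMIs their ratios were then at most -5.13 and -6.63. Without the tdTom+ cells in host sub-clusters, Prss50 in the later group moved from -6.09 to -7.67. Once the neural level was subtracted, the tdTom+ net level of Prss50 was below 0 in all 3 groups, as was that of Tspan33 in the megakaryocyte-like group. They then had no ratio, and the counts, which under this subtraction use no interval, include them as lower. In the early group, subtracting the level in neural cells moved Tspan33 from -3.31 to -4.89, and in the megakaryocyte-like group thinning moved Fam210b from -1.55 to -0.95, past the 2-fold rule. The share of all genes lower in the megakaryocyte-like group was 3.65% at a minimum of 30 UMIs. No paired analysis was possible because each fraction has 1 library. No replicate could be left out for the same reason. Depth limits Prss50 and Hemgn most, with 2 to 40 UMIs in matched tdTom+ erythroid-like cells.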
